A study of Mus musculus and Rattus norvegicus with 32 samples.

Results

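The genes described are 10 genes of bile acid synthesis and transport: the enzymes Cyp7a1, Cyp8b1, Cyp7b1, Slc27a5 and Baat, the transporters Slc10a1, Abcb4 and Abcc2, and the nuclear receptors Nr1h4 and Nr0b2. They are 10 of the 9931 genes that the mouse and rat arrays of the study named through probe sets with 1 annotated gene symbol, and they were matched by symbol with case ignored. All 10 had a probe set on the mouse array, 13 probe sets in all, and 8 had one on the rat array, with 11 probe sets. Cyp8b1 and Slc27a5 were measured in mouse alone.

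Bile acids are made from cholesterol in hepatocytes, joined to taurine or glycine, pumped into bile, and taken back up from portal blood. CYP7A1 starts the classic route and CYP8B1 directs it towards cholic acid, while CYP7B1 acts in the alternative route through oxysterols. The bile acid receptor FXR, encoded by Nr1h4, induces SHP, encoded by Nr0b2, and SHP represses Cyp7a1 and Cyp8b1 together with the receptor NR5A2, which binds their promoters. SHP is also known, from work in rat, to repress Slc10a1, the main sodium-dependent uptake carrier.

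Trichloroethylene (TCE), a chlorinated solvent, was given by gavage at 1500 mg per kg body weight in corn oil to male B6C3F1 mice, a hybrid of inbred strains, and to male SD rats, an outbred stock. The repeated schedule was 1 dose daily over 14 days with animals aged 10 weeks at collection, the single schedule was 1 dose with animals aged 8 weeks, and the comparison group of each species and schedule received corn oil alone. Livers were collected 18 h after the last dose, and polyadenylated RNA of the whole tissue was hybridised to 1 Affymetrix array per sample. The 32 arrays formed 8 groups of 4: repeated TCE, repeated oil, single TCE and single oil in mouse and in rat. The schedules differ in age and number of doses together, so an effect of either cannot be told apart from the other. Whether each sample came from its own animal is not stated in the labels, and the p-values then reflect only how far these samples differed, which may be technical.

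The values the authors deposited were ratios in which 1 stands for the median oil array of that species under that schedule. No value is a signal level. The liver markers could therefore not be checked for presence, and precision is limited by having 4 arrays a group. Differences are given as TCE minus oil on the log2 scale, with a standard error (SE) from limma, and "fell" or "rose" is used where the Benjamini-Hochberg adjusted p over all probe sets was under 0.05. In whole liver, fewer cells of a type and less RNA per cell cannot be told apart.

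Of the 32 arrays 10 had a Gapdh control value, 3' minus 5' on the log2 scale, above 1, which means that less of the 5' end of the transcript was measured than on the oil arrays. They were repeated TCE arrays 2, 3 and 4, repeated oil array 1 and single TCE arrays 1, 3 and 4 in mouse, and repeated TCE arrays 3 and 4 and single TCE array 4 in rat. Of these, the beta-actin control was also above 1 on mouse repeated TCE array 2 (1.11), mouse single TCE arrays 3 and 4 (1.03 each) and rat repeated TCE array 3 (1.9). On the rest it lay between -0.125 (rat repeated TCE array 4) and 0.994 (rat single TCE array 4), with 0.28 on mouse repeated oil array 1. Arrays were set apart by Gapdh alone. The mean over the hepatocyte markers Alb, Ttr, Apoa1, Tat and Hnf4a lay between -0.845 and -0.264 on mouse repeated TCE arrays and between -0.271 and 0.0716 on repeated oil arrays. It lay between -0.622 and -0.288 on mouse single TCE arrays and between -0.0794 and 0.0677 on single oil arrays. These hepatocyte ranges overlapped slightly after repeated dosing and were apart after a single dose. On 0 of the 5 probe sets did all TCE arrays lie below all oil arrays in either schedule. Some other cell types had ranges that were apart. The stellate cell markers averaged between -1.64 and -0.818 on mouse single TCE arrays and between -0.639 and 0.528 on single oil arrays. After repeated dosing they lay between -0.17 and 0.0198 with TCE and between -0.155 and 0.332 with oil. Of these markers Col3a1 and Sparc fell under both schedules. All 8 stellate probe sets had differences below 0 after a single dose, but only 4 of 8 did after repeated dosing, where the highest was 1.14. The Kupffer cell and macrophage markers averaged between -0.554 and -0.354 on mouse repeated TCE arrays and between -0.276 and 0.155 on repeated oil arrays, and overlapped after a single dose. The endothelial markers averaged between -0.325 and -0.244 on mouse single TCE arrays and between -0.224 and 0.171 on single oil arrays, and overlapped slightly after repeated dosing. The bile duct markers overlapped in both mouse schedules. In rat the macrophage markers averaged between -0.992 and -0.283 on repeated TCE arrays and between -0.277 and 0.281 on repeated oil arrays. Hnf4a gave the largest hepatocyte marker differences, -1.38 and -1.80, neither past the threshold, and Tat was the 1 of 5 that fell (after repeated dosing). Among 39 marker probe sets of all liver cell types and pancreas 7 fell after repeated dosing in mouse and 2 after a single dose, and none rose. These were 17.9% and 5.13%, beside 8.48% and 4.14% of all mouse probe sets called lower. In rat 2 of 46 rose and 1 fell after repeated dosing, together 6.52%, beside 2.81% of all rat probe sets. After a single dose 0 passed in limma, with 14 at an unadjusted p under 0.05 (19.2% of all rat probe sets were). On 1 rat single oil array the mean over pancreas markers was 6.15. The part of RNA quality or of cell makeup in the results that follow was not tested.

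Promoters are shown for the members that passed the test in mouse and have one in the RefSeq table (build GRCm38.p6, 250 bases before to 50 after the start), because SHP and NR5A2 act at such sites. Capitals mark a motif, and all other bases are in lower case. The motifs searched on both strands were AGGTCA, the half-site of many nuclear receptors, and CAAGGTC and CAAGGCC, cores of sites that NR5A2 binds. An A after CAAGGTC makes an overlapping AGGTCA. The sequences, each 5' to 3' along the gene, lie at chr9:121916256-121916555 (minus strand, Cyp8b1), chr12:80968656-80968955 and chr12:80968030-80968329 (minus strand, Slc10a1) and chr4:133553126-133553425 (plus strand, Nr0b2).
Cyp8b1: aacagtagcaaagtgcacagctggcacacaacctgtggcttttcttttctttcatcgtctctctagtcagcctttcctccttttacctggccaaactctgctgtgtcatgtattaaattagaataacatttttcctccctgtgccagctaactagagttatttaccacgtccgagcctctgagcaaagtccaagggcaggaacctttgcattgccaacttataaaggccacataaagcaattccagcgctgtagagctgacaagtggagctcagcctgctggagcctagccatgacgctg
Slc10a1 first promoter: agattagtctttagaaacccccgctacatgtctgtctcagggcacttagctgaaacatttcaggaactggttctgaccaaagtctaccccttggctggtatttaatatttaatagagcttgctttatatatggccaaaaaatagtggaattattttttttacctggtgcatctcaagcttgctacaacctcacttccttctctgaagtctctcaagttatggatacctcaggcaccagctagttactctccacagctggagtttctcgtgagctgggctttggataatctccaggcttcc
Slc10a1 second promoter: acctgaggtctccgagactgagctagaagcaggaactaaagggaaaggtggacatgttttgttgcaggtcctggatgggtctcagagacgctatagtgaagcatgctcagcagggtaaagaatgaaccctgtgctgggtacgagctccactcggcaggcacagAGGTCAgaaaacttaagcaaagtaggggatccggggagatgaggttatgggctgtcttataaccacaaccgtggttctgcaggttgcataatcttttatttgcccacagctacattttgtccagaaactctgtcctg
Nr0b2: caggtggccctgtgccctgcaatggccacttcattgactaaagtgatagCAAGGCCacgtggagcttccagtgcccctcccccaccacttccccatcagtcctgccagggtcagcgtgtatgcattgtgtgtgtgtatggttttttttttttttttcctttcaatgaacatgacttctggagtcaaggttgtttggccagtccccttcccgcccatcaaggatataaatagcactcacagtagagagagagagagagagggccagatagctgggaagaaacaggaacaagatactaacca

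The second Slc10a1 promoter held AGGTCA with its first base at -87 from the annotated start, and the Nr0b2 promoter held CAAGGCC at -201, both on the strand of the gene. No motif was found in these windows of Cyp8b1 or of the first Slc10a1 promoter. Only exact matches were searched, so related sites with other letters would be missed. Among the other members with an entry, Abcc2 (chr19:43782058-43782357) held AGGTCA at -49, Nr1h4 (chr10:89506609-89506908) held it on the opposite strand at -214, and Abcb4 (chr5:8893471-8893770) held none. Thus 4 of 7 member promoters held a motif, against 23.3% of the 32851 promoters in the table. AGGTCA alone was in 16.3% of them, CAAGGTC in 3.96% and CAAGGCC in 6.19%. Such a match is a description of the letters and does not show binding.

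In mice given TCE repeatedly, the rate-limiting enzyme Cyp7a1 and the uptake carrier Slc10a1 fell, and no member rose. Of 13 probe sets 3 fell in limma, 1 of Cyp7a1 and 2 of Slc10a1, and 10.7% of all probe sets passed there, 8.48% lower and 2.24% higher. On 7 of the 13 all TCE arrays lay below all oil arrays and on 0 above, against 12.4% and 4.60% of all probe sets. The median member difference was -0.568, beside -0.154 over all probe sets.

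After a single dose in mouse, Cyp8b1 rose while Slc27a5, Slc10a1 and Nr0b2 fell. These were 1 probe set higher and 3 lower of 13 in limma, and 8.30% of all probe sets passed, 4.16% higher and 4.14% lower. The arrays of the TCE and oil groups did not overlap on 2 member probe sets that were higher and 4 that were lower, against 7.96% and 9.62% of all probe sets. The median member difference was -0.203, beside -0.0922 over all probe sets. None of these mouse calls, nor those below, held with quantile normalization or without the arrays of Gapdh value above 1, where the mouse fits had only 1 TCE array per schedule.

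In rat no member passed in limma after repeated or single dosing (0 of 11 probe sets each). Of all rat probe sets 2.81% passed after repeated dosing and 1.72% after a single dose. At an unadjusted p under 0.05 the count was 1 after repeated dosing, where 18.9% of all rat probe sets were, and 4 after a single dose, where 19.2% were. All TCE arrays lay above all oil arrays on 1 member probe set after repeated dosing (Baat), where 7.52% of all probe sets did, and on 0 below, against 4.79%. With the single dose 1 lay above (Baat) and 2 below (both of Nr0b2), against 8.79% and 3.72%. The member medians were -0.172 and -0.166, beside 0.0443 and 0.143 over all rat probe sets.

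**Figure D1:**
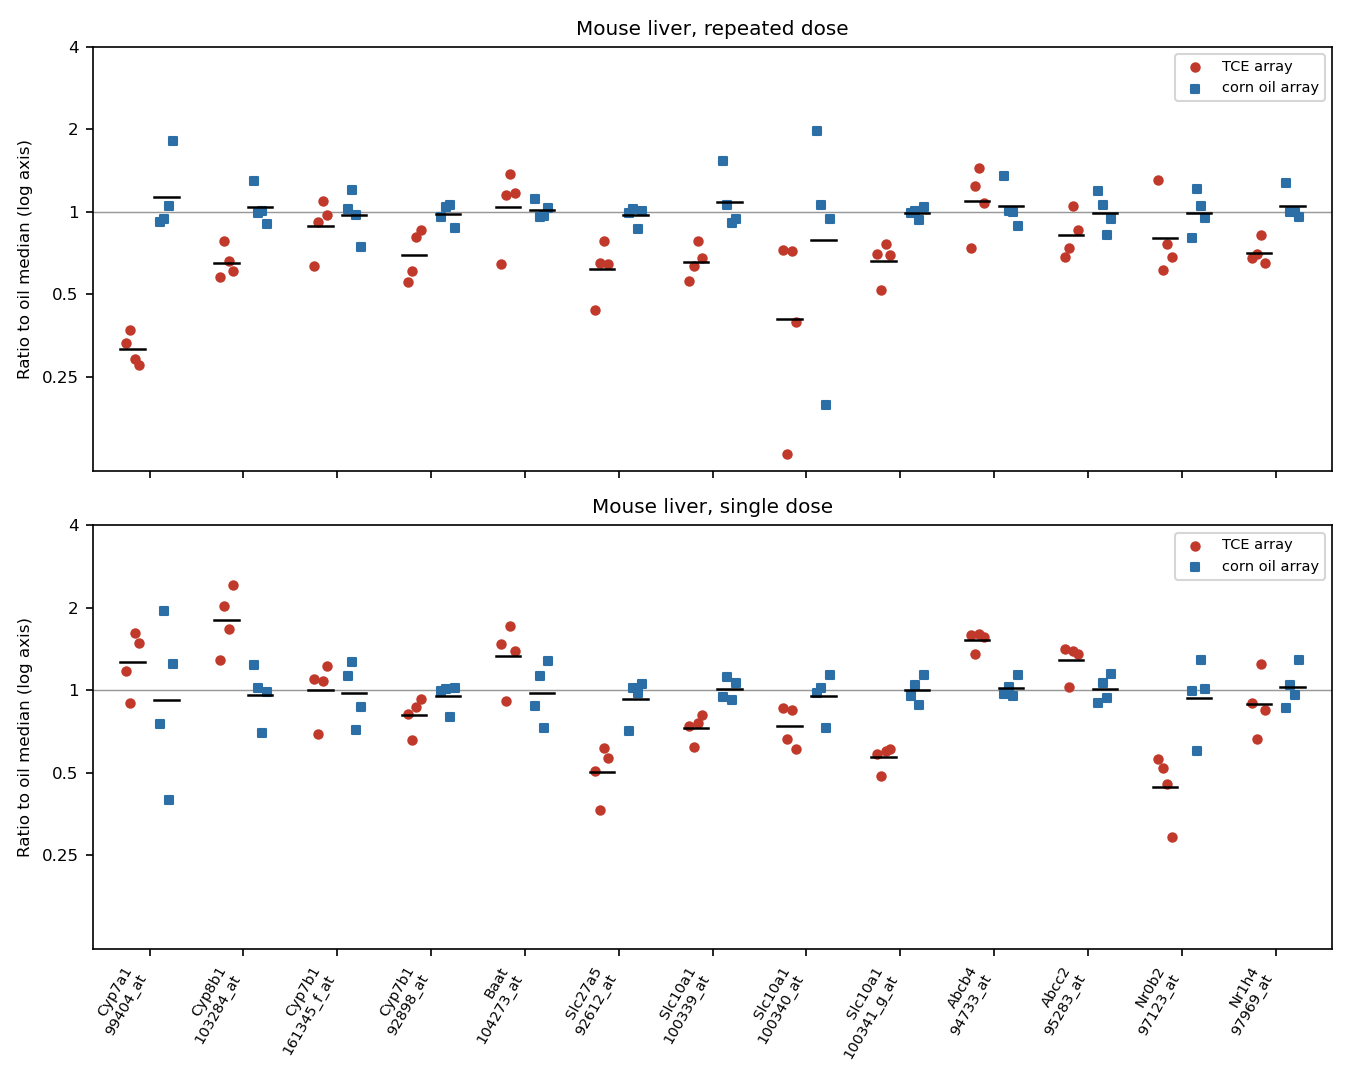
Mouse liver: ratio to the oil median on a log axis for each of the 13 member probe sets, with repeated dosing above and the single dose below. Each circle is a TCE array and each square a corn oil array (4 per group), and the bars are geometric means. After repeated dosing the Cyp7a1 circles lie between 0.275 and 0.372, below all its squares, and after a single dose those of Cyp8b1 lie above its squares and those of Nr0b2 below.

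**Figure D2:**
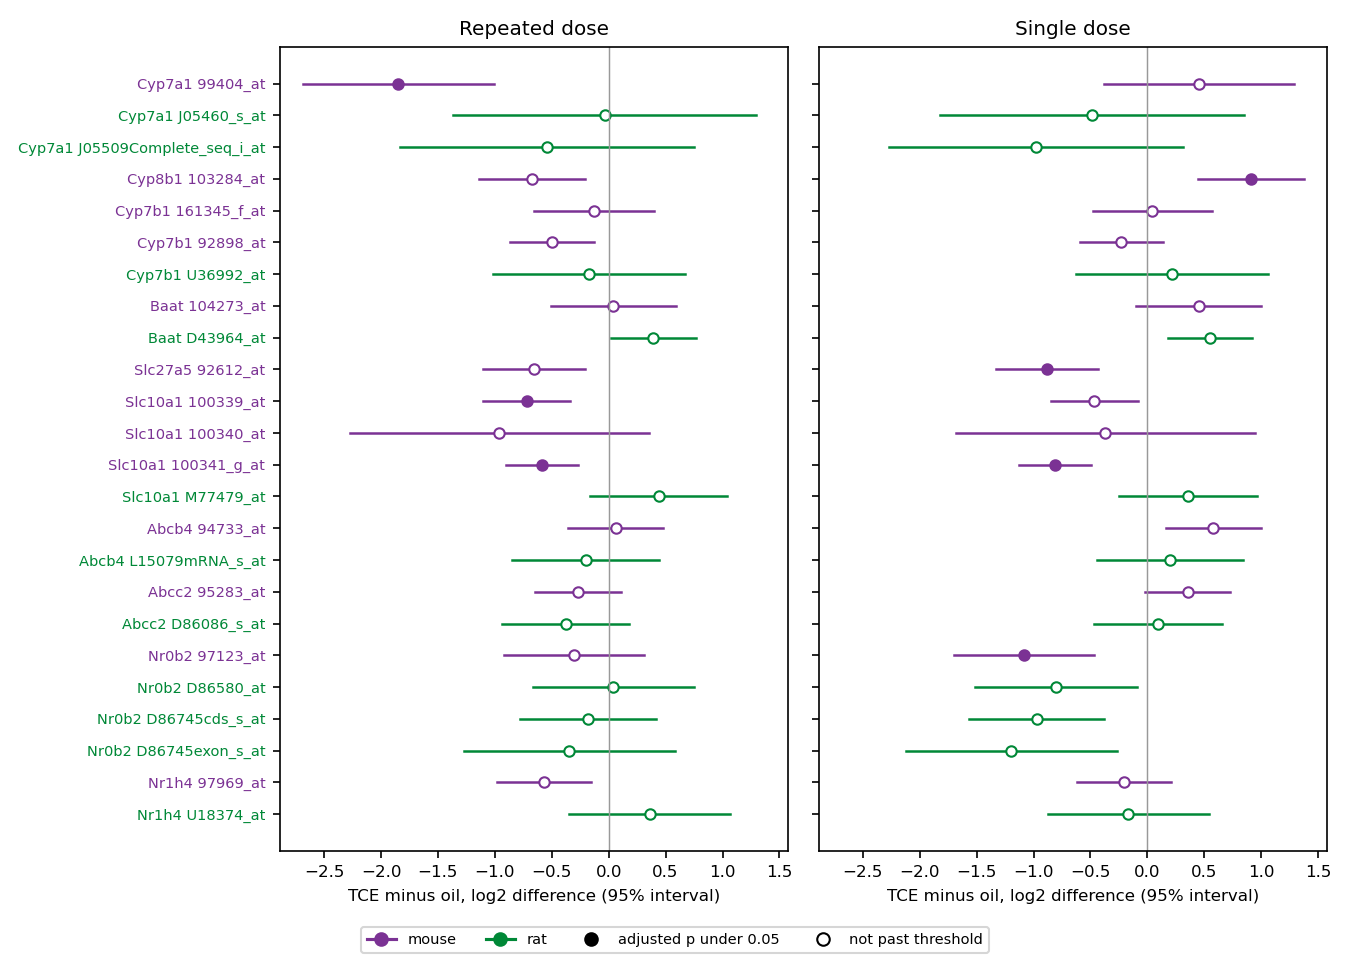
Difference of TCE minus oil on the log2 scale, with its 95% interval from limma, for each member probe set in mouse and rat after repeated dosing (left) and a single dose (right). Filled points have an adjusted p under 0.05. They are Cyp7a1 and 2 Slc10a1 probe sets on the left and Cyp8b1, Slc27a5, 1 Slc10a1 probe set and Nr0b2 on the right, all of mouse.

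Cyp7a1, the cholesterol 7-alpha-hydroxylase that begins the classic route, showed the largest fall among the members. After repeated dosing its mouse probe set 99404_at read 0.332, 0.372, 0.291 and 0.275 on the TCE arrays, against 0.919, 0.946, 1.054 and 1.808 on the oil arrays. All TCE arrays were low, and oil array 4 stood above the other oil arrays. The means were 0.318 ± 0.0435 with TCE and 1.18 ± 0.422 with oil (SD, n = 4 each), a difference of -1.85 ± 0.39 (SE, limma adjusted p = 0.0108). TCE array 1, the only one of its group with a Gapdh value below 1, was at 0.332, inside the range of the others. The call remained whichever 1 of the 8 arrays was left out, with differences between -1.95 and -1.62.

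With the single dose the Cyp7a1 probe set read 1.175, 0.898, 1.619 and 1.492 with TCE, against 0.755, 1.946, 0.397 and 1.245 with oil. The oil arrays spread widely and enclosed all TCE arrays, and the difference of 0.45 ± 0.39 did not pass (limma adjusted p = 0.526). Both rat probe sets overlapped between the groups as well. J05460_s_at lay between 0.649 and 0.974 with repeated TCE, against 0.287 and 2.029 with oil, and between 0.412 and 1.32 with single TCE, against 0.412 and 2.786 with oil. J05509Complete_seq_i_at lay between 0.317 and 1.337 with repeated TCE, against 0.413 and 1.865 with oil, and between 0.351 and 0.793 with single TCE, against 0.484 and 2.8 with oil. None of these passed. The 2 rat probe sets differed on several oil arrays. Single oil array 3 read 0.412 on J05460_s_at and 2.8 on J05509Complete_seq_i_at, and single oil array 4 read 2.786 and 0.484. Repeated oil array 4 read 2.029 and 0.775, while single TCE array 2 read 0.412 and 0.424. Which of them follows Cyp7a1 was not tested, so the lack of a call in rat is weak evidence about this gene. After repeated dosing the 95% intervals of the rat difference reached down to -1.37 for J05460_s_at and -1.83 for J05509Complete_seq_i_at. The mouse interval ran between -2.69 and -1.01 and overlapped both.

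Cyp8b1, the sterol 12-alpha-hydroxylase that sets the share of cholic acid, rose after a single dose. Its probe set 103284_at read 1.293, 2.038, 1.68 and 2.426 with single TCE, against 1.236, 1.018, 0.699 and 0.982 with oil. Every TCE array was above every oil array, although TCE array 1 and oil array 1 were close. The difference was 0.91 ± 0.22 (limma adjusted p = 0.021). It lost the call without oil array 3 (0.75, adjusted p = 0.0672) or TCE array 4 (0.77, adjusted p = 0.0658), with the Gapdh value as a covariate (0.74, adjusted p = 0.20), and in a fit on the single-dose groups alone (adjusted p = 0.0741). TCE array 2, whose Gapdh value was below 1, was among the high arrays at 2.038.

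After repeated dosing the same probe set read 0.577, 0.783, 0.66 and 0.608 with TCE, against 1.296, 0.991, 1.009 and 0.902 with oil. Here every TCE array was below every oil array, and the difference of -0.67 ± 0.22 missed the threshold (limma adjusted p = 0.0616). It passed with the Gapdh covariate (adjusted p = 0.0496) and without the noisiest 40% of probe sets (adjusted p = 0.0245). The latter fit, here and below, kept every member probe set whatever its spread, so only other probe sets left the adjustment. After repeated dosing in mouse that fit called 23.2% of the probe sets it tested, against 10.7% as fitted. The difference between the schedules was tested directly. Cyp8b1 was the 1 of 13 probe sets that passed, with -1.58 ± 0.31 for the repeated effect minus the single effect (limma adjusted p = 0.042), where 0.877% of all probe sets passed, 0.668% lower. That call was lost in 10 of the 16 fits that left out 1 array, with adjusted p up to 0.0744 and differences between -1.67 and -1.43. The arrays were single oil 3, single TCE 3 and 4, repeated oil 1, 2 and 4, and each of the 4 repeated TCE arrays.

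Cyp7a1 had the larger schedule difference, -2.30 ± 0.55, and did not pass (limma adjusted p = 0.0599). Without single oil array 2, which had the highest Cyp7a1 value of its group, it was -2.66 and passed (adjusted p = 0.0313), as it did with array weights (adjusted p = 0.0464) and without the noisiest 40% of probe sets (adjusted p = 0.0139). For the other 8 mouse members the schedule differences ran between -0.62 for Abcc2 and 0.78 for Nr0b2, with adjusted p of 0.19 or more. In rat 0 of 11 probe sets passed for the schedule difference in limma, with 0 at an unadjusted p under 0.05 (9.36% of all rat probe sets) and 0 of all 8740 probe sets called.

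Cyp7b1, the oxysterol 7-alpha-hydroxylase of the alternative route, did not pass in any comparison as fitted. Probe set 92898_at read 0.557, 0.607, 0.807 and 0.856 with repeated TCE in mouse, against 0.962, 1.038, 1.064 and 0.873 with oil. The groups did not overlap, but TCE array 4 and oil array 4 lay side by side, and the difference was -0.50 ± 0.17 (limma adjusted p = 0.0757). It passed with the Gapdh covariate (adjusted p = 0.0293) and without the noisiest 40% of probe sets (adjusted p = 0.0392). In the single schedule it read 0.818, 0.656, 0.866 and 0.929 with TCE, against 0.992, 1.008, 0.797 and 1.023 with oil, and the groups overlapped. The second probe set, 161345_f_at, overlapped in both schedules with differences of -0.13 and 0.04. Its sign after repeated dosing turned under centring of arrays. The rat probe set U36992_at lay between 0.783 and 1.521 with repeated TCE, against 0.579 and 2.954 with oil, and between 0.903 and 1.447 with single TCE, against 0.966 and 1.268 with oil.

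Slc27a5 encodes the ligase that joins bile acids to coenzyme A, the step before conjugation, and it fell after a single dose. Probe set 92612_at read 0.505, 0.365, 0.617 and 0.567 with single TCE in mouse, against 0.708, 1.021, 0.979 and 1.054 with oil. All TCE arrays lay below oil array 1, the lowest of its group. The difference was -0.88 ± 0.21 (limma adjusted p = 0.0199). The adjusted p came to between 0.0517 and 0.0561 without TCE array 1 or oil array 2, 3 or 4, with differences between -0.88 and -0.82, and to 0.0542 in a fit on the single-dose groups alone. With repeated TCE the probe set read 0.437, 0.65, 0.785 and 0.647, against 0.992, 1.027, 0.864 and 1.008 with oil. These groups did not overlap either, and the difference of -0.66 ± 0.21 did not pass (limma adjusted p = 0.058), though it did without TCE array 3 (-0.77, adjusted p = 0.0454), with the Gapdh covariate (-0.83, adjusted p = 0.0154) and without the noisiest 40% of probe sets (adjusted p = 0.0234).

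Baat encodes the enzyme that then adds taurine or glycine. In rat its probe set D43964_at read 1.171, 1.294, 1.392 and 1.303 with repeated TCE, against 1.074, 0.84, 1.108 and 0.926 with oil. With single TCE it read 1.441, 1.312, 1.327 and 1.515, against 1.03, 0.97, 1.183 and 0.701 with oil. All TCE arrays were above all oil arrays in both schedules, yet the differences of 0.39 ± 0.17 and 0.55 ± 0.17 did not pass (limma adjusted p = 0.234 and 0.109). The mouse probe set 104273_at overlapped between the groups. It lay between 0.646 and 1.377 with repeated TCE, against 0.955 and 1.115 with oil, and between 0.91 and 1.71 with single TCE, against 0.728 and 1.283 with oil.

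Slc10a1 encodes NTCP, the carrier that takes conjugated bile acids out of portal blood. It fell in mouse under both schedules. Probe set 100341_g_at read 0.7, 0.519, 0.766 and 0.697 with repeated TCE, against 0.989, 1.011, 0.937 and 1.045 with oil. With single TCE it read 0.586, 0.488, 0.601 and 0.612, against 0.954, 1.046, 0.886 and 1.135 with oil. Both groups were narrow and apart in each schedule. The differences were -0.58 ± 0.15 after repeated dosing (limma adjusted p = 0.0237) and -0.81 ± 0.15 after a single dose (limma adjusted p = 0.00538).

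Probe set 100339_at of the same gene read 0.559, 0.632, 0.786 and 0.677 with repeated TCE, against 1.534, 1.061, 0.909 and 0.939 with oil. Oil array 1, the oil array with a Gapdh value above 1, was the highest. The difference was -0.72 ± 0.18 (limma adjusted p = 0.0216). With single TCE it read 0.739, 0.621, 0.759 and 0.814, against 0.941, 1.121, 0.921 and 1.059 with oil, apart but not past the threshold (-0.46 ± 0.18, limma adjusted p = 0.122), which it passed with the Gapdh covariate (-0.81, adjusted p = 0.0303). The third probe set, 100340_at, varied far more: it read 0.727, 0.131, 0.717 and 0.397 with repeated TCE, against 1.979, 1.06, 0.198 and 0.94 with oil, and lay between 0.609 and 0.863 with single TCE, against 0.73 and 1.132 with oil. Its differences of -0.96 and -0.37 did not pass.

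The single-dose call of 100341_g_at remained whichever 1 of the 8 arrays was left out, with adjusted p between 0.011 and 0.0193. After repeated dosing 100341_g_at lost its call without oil array 2 (-0.58), oil array 4 (-0.56) or TCE array 2 (-0.47). For 100339_at the same happened without oil array 2 (-0.73) or TCE array 2 (-0.70). Centring each array on its median, which removes the shift of -0.154 over all probe sets, also took both repeated calls below the threshold at -0.43 and -0.56 (adjusted p = 0.073 and 0.0643).

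In rat both Slc10a1 estimates were above 0. Probe set M77479_at read 1.262, 1.584, 1.058 and 1.214 with repeated TCE, against 0.697, 1.333, 1.303 and 0.626 with oil. With single TCE it read 1.448, 1.187, 1.126 and 1.356, against 1.114, 0.886, 1.451 and 0.681 with oil. With repeated dosing 2 oil arrays lay below the TCE arrays and 2 within their range. In the single schedule 3 oil arrays lay below the TCE arrays and array 3 just above them. The differences of 0.44 ± 0.28 and 0.36 ± 0.28 did not pass (limma adjusted p = 0.427 and 0.517).

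The species difference was tested on the 8 members measured in both species, with 1 probe set per gene, among 3056 shared genes. Slc10a1 was the 1 of 8 that passed in each schedule, lower in mouse both times. Its probe sets in this test were 100341_g_at in mouse and M77479_at in rat. Of all shared genes 10.5% passed after repeated dosing (8.51% lower in mouse) and 4.22% after a single dose (2.72% lower in mouse). The mouse effect minus the rat effect was -1.02 ± 0.31 after repeated dosing (limma adjusted p = 0.034) and -1.17 ± 0.31 after a single dose (limma adjusted p = 0.0318). Centring of arrays ended both calls, at -0.82 (adjusted p = 0.0832) and -0.95 (adjusted p = 0.0584). After repeated dosing the call was also lost without mouse oil array 2 or 4, mouse TCE array 2, rat oil array 1 or 4 or rat TCE array 2, with differences between -1.02 and -0.83. In the single schedule it was lost without mouse oil array 2 or 4, mouse TCE array 1 or 2, rat oil array 2 or 4 or rat TCE array 1 or 4, with differences between -1.18 and -0.99.

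No other member passed the test of the species difference. The estimate for Cyp7a1 was -1.30 ± 0.74 after repeated dosing and 1.43 ± 0.74 after a single dose (limma adjusted p = 0.262 for both), so the mouse fall was not shown to differ from the rat. Its rat probe set in this test was J05509Complete_seq_i_at, with rat effects of -0.54 after repeated dosing and -0.98 after a single dose. The rat effects on J05460_s_at, not used there, were -0.033 and -0.49. Nr1h4 had -0.93 ± 0.38 after repeated dosing (limma adjusted p = 0.119). For Nr0b2, lower in the single-dose estimates of both species, the species difference was -0.11 with a 95% interval between -0.93 and 0.71. The differences of Cyp7b1, Baat, Abcb4 and Abcc2 lay between -0.44 and 0.38 in both schedules.

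**Figure D3:**
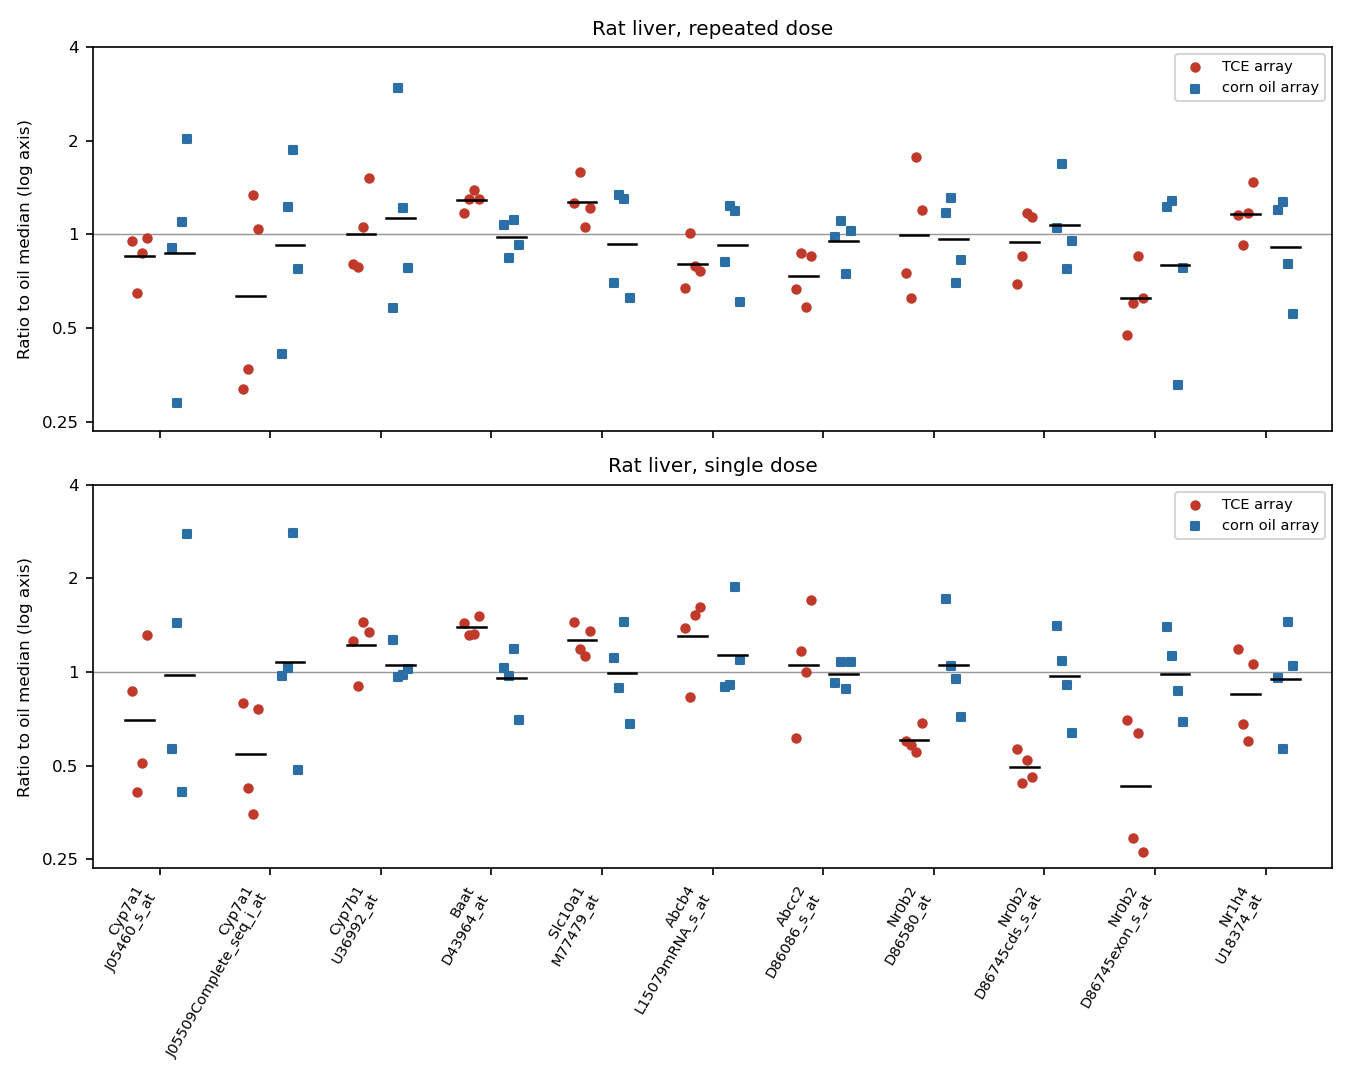
Rat liver: ratio to the oil median on a log axis for each of the 11 member probe sets, drawn as for mouse, with repeated dosing above and the single dose below. Circles are TCE arrays, squares corn oil arrays (4 per group) and bars geometric means. Baat is the 1 gene whose circles lie above all squares in both schedules (1.171 to 1.392 and 1.312 to 1.515). The Cyp7a1 squares spread between 0.287 and 2.8 over its 2 probe sets, which differed on several of the same oil arrays.

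The export pumps among the members, Abcb4 and Abcc2, did not pass in any comparison as fitted. Abcb11, another transporter of the pathway, had no mouse probe set with 1 gene symbol and was not measured there. Abcb4, which carries phosphatidylcholine into bile, read 1.594, 1.351, 1.602 and 1.57 with single TCE in mouse (probe set 94733_at), against 0.969, 1.031, 0.953 and 1.14 with oil. The TCE arrays stood clear above the oil arrays, and the difference was 0.58 ± 0.19 (limma adjusted p = 0.0825). It passed under 4 alternatives (centring of arrays, array weights, without the noisiest 40% of probe sets, and the single-dose groups alone), with differences between 0.58 and 0.67 and adjusted p between 0.0353 and 0.0495, and was 0.18 with the Gapdh covariate (adjusted p = 0.696). With repeated TCE it read 0.739, 1.243, 1.441 and 1.081, against 1.353, 1.005, 0.995 and 0.887 with oil, and the groups overlapped. In rat (L15079mRNA_s_at) it lay between 0.673 and 1.011 with repeated TCE, against 0.604 and 1.237 with oil, and between 0.833 and 1.62 with single TCE, against 0.895 and 1.877 with oil.

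Abcc2 encodes MRP2, which exports conjugated anions such as bilirubin glucuronides. In mouse (95283_at) it lay between 0.687 and 1.05 with repeated TCE, against 0.823 and 1.189 with oil, and between 1.026 and 1.412 with single TCE, against 0.899 and 1.148 with oil. Both differences, -0.27 and 0.35, were smaller than those of the members that passed. In rat (D86086_s_at) it lay between 0.583 and 0.871 with repeated TCE, against 0.745 and 1.104 with oil, and between 0.616 and 1.7 with single TCE, against 0.881 and 1.076 with oil.

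Nr0b2 encodes SHP, the repressor induced by FXR, and it fell in mouse after a single dose. Probe set 97123_at read 0.56, 0.521, 0.456 and 0.29 with single TCE, against 0.991, 0.602, 1.294 and 1.009 with oil. TCE array 4 was the lowest, and oil array 2 lay only just above TCE array 1. The difference was -1.08 ± 0.29 (limma adjusted p = 0.033). With the Gapdh value as a covariate it was -0.58 and did not pass (adjusted p = 0.40), nor did it in a fit on the single-dose groups alone (adjusted p = 0.0702), and TCE array 2, with a Gapdh value below 1, read 0.521. The call was also lost without oil array 1, 3 or 4 or TCE array 3 or 4, with differences between -1.10 and -0.88.

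With repeated TCE the mouse probe set read 1.304, 0.611, 0.761 and 0.686, against 0.805, 1.208, 1.048 and 0.952 with oil. TCE array 1, without the Gapdh shift, was above all oil arrays, and the other TCE arrays were below them. The difference of -0.31 ± 0.29 did not pass (limma adjusted p = 0.53), and without the arrays whose Gapdh value was above 1 its sign turned (0.29).

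The 3 rat probe sets of Nr0b2 were also low after a single dose, though none passed. D86580_at read 0.6, 0.582, 0.554 and 0.686 with single TCE, against 1.722, 1.049, 0.951 and 0.717 with oil. D86745cds_s_at read 0.568, 0.441, 0.522 and 0.46 with single TCE, against 1.407, 1.088, 0.912 and 0.639 with oil. On both, the TCE arrays lay below all oil arrays, with differences of -0.80 ± 0.33 and -0.97 ± 0.28 (limma adjusted p = 0.205 and 0.0882). Without the noisiest 40% of probe sets the second of these passed (adjusted p = 0.0254), in a fit that called 8.40% of its probe sets, against 1.72% as fitted. D86745exon_s_at read 0.701, 0.293, 0.635 and 0.264 with single TCE, against 1.395, 1.13, 0.87 and 0.69 with oil, where TCE array 1 reached oil array 4 (-1.20 ± 0.43, limma adjusted p = 0.155). In this rat group only TCE array 4 had a Gapdh value above 1. With repeated TCE D86580_at read 0.75, 0.622, 1.766 and 1.196, against 1.173, 1.304, 0.697 and 0.827 with oil. D86745cds_s_at read 0.694, 0.85, 1.172 and 1.135 with repeated TCE, against 1.047, 1.687, 0.772 and 0.953 with oil. D86745exon_s_at lay between 0.476 and 0.853 with repeated TCE, against 0.328 and 1.28 with oil. In this schedule all 3 probe sets overlapped between the groups, with differences of 0.04, -0.18 and -0.35.

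Nr1h4 encodes FXR, the receptor that senses bile acids. In mouse its probe set 97969_at read 0.679, 0.701, 0.823 and 0.65 with repeated TCE, against 1.278, 1.003, 0.997 and 0.962 with oil. Every TCE array was below every oil array, and the difference of -0.57 ± 0.19 missed the threshold (limma adjusted p = 0.0724), but passed with the Gapdh covariate (adjusted p = 0.0328) and without the noisiest 40% of probe sets (adjusted p = 0.0333). It read 0.896, 0.664, 1.245 and 0.85 with single TCE, against 0.858, 1.043, 0.957 and 1.291 with oil, and those groups overlapped. The rat probe set U18374_at overlapped in both schedules: it lay between 0.924 and 1.477 with repeated TCE, against 0.555 and 1.272 with oil, and between 0.6 and 1.19 with single TCE, against 0.565 and 1.449 with oil.

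**Figure D4:**
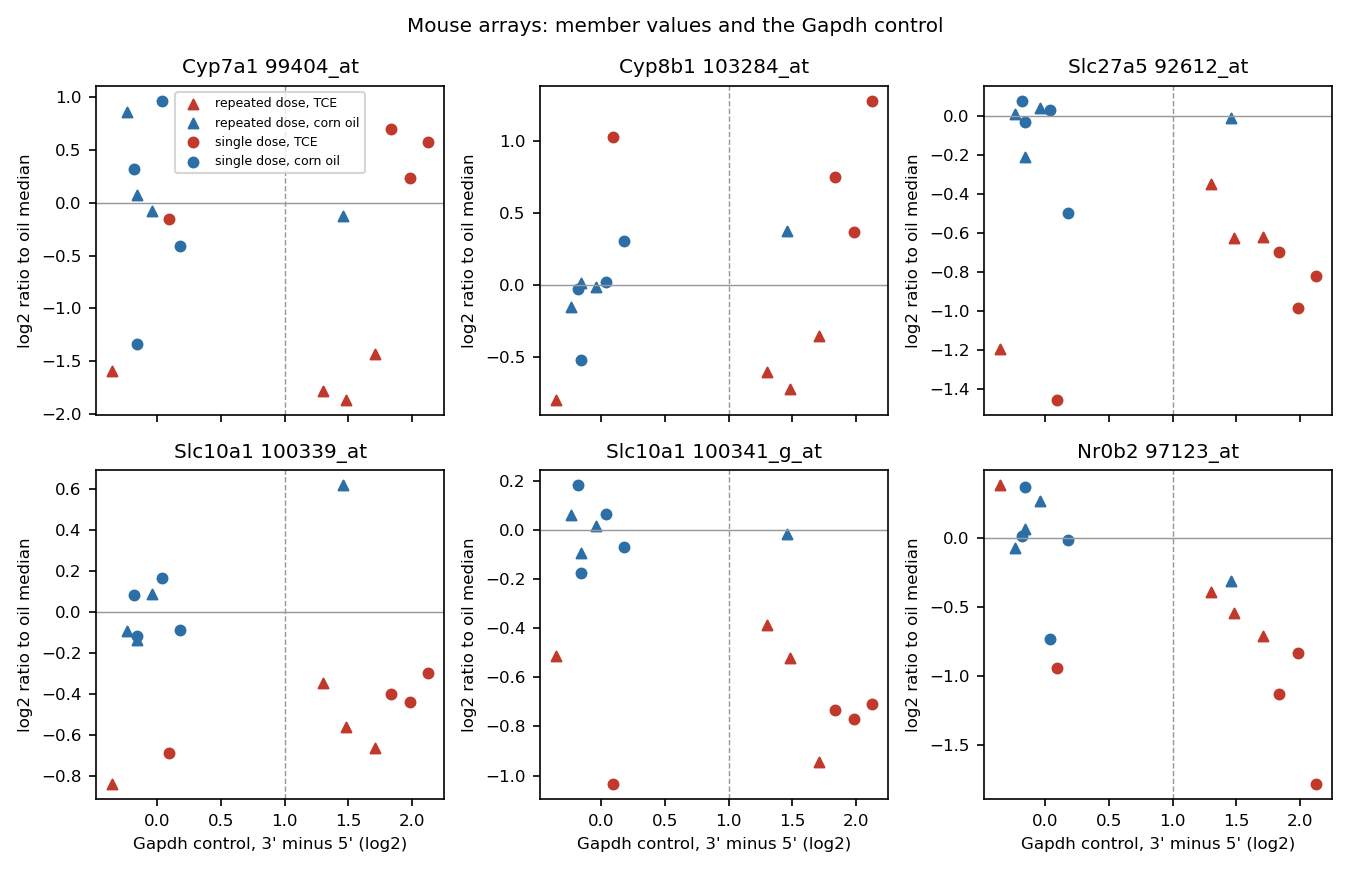
The 6 mouse probe sets that passed in a comparison: log2 ratio to the oil median (vertical axis) against the Gapdh control value of the same array, 3' minus 5' on the log2 scale (horizontal axis). Triangles are repeated and circles single dosing, red TCE and blue corn oil, and the dashed line is at 1. Cyp7a1 is low on all 4 repeated TCE arrays on either side of the line, and Nr0b2 is lowest on the single TCE array with the largest Gapdh value (2.13).

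The other genes of the pathway came from a list of 48, of which 28 were on the mouse array (34 probe sets) and 27 on the rat array (44 probe sets). After repeated dosing in mouse 0 rose and 4 fell, which is 11.8% of the 34 probe sets. Of all mouse probe sets 8.48% were called lower and 10.7% in either direction. Rxra, the partner of FXR on DNA, fell by 0.66 ± 0.15 (probe set 92234_at, limma adjusted p = 0.0141; its other probe set 92235_g_at, -0.46, did not pass). Fgfr4, the receptor through which intestinal FGF15 lowers bile acid synthesis, fell by 0.76 ± 0.17 (limma adjusted p = 0.0149). Nr5a2 fell by 0.90 ± 0.26 on 102932_at (limma adjusted p = 0.0433), and its other probe set 103728_at was at -0.14. Hsd3b7, the dehydrogenase that acts after the 7-alpha-hydroxylases, fell by 0.51 ± 0.15 (limma adjusted p = 0.0452). The median of the list was -0.183, beside the -0.154 of all probe sets.

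After a single dose in mouse 2 genes of the list rose and 2 fell, together 11.8% of its probe sets, against 8.30% of all mouse probe sets. Ephx1, microsomal epoxide hydrolase, rose by 0.60 ± 0.16 (limma adjusted p = 0.0297), and Hsd17b4, the peroxisomal D-bifunctional protein that shortens the bile acid side chain, rose by 0.47 ± 0.13 (limma adjusted p = 0.0414). Nr1i2, the xenobiotic receptor PXR, fell by 1.19 ± 0.27 (limma adjusted p = 0.0163), and Rxra fell by 0.54 ± 0.15 on 92235_g_at (limma adjusted p = 0.0379; 92234_at was at -0.42). In rat 0 of 44 probe sets passed in limma in either schedule, and at an unadjusted p under 0.05 the counts were 9 after repeated dosing and 10 after a single dose, beside 18.9% and 19.2% of all rat probe sets. Of the 18 listed genes in the species comparison, 1 passed after repeated dosing, where 10.5% of all shared genes passed. It was Slc27a2, a very long chain acyl-CoA ligase, with a mouse effect of -0.20, a rat effect of 0.59 and a difference of -0.79 ± 0.25 (limma adjusted p = 0.0391). In the single schedule 0 of 18 passed in limma, with 5 at an unadjusted p under 0.05, beside 21.1% of all shared genes.

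**Figure D5:**
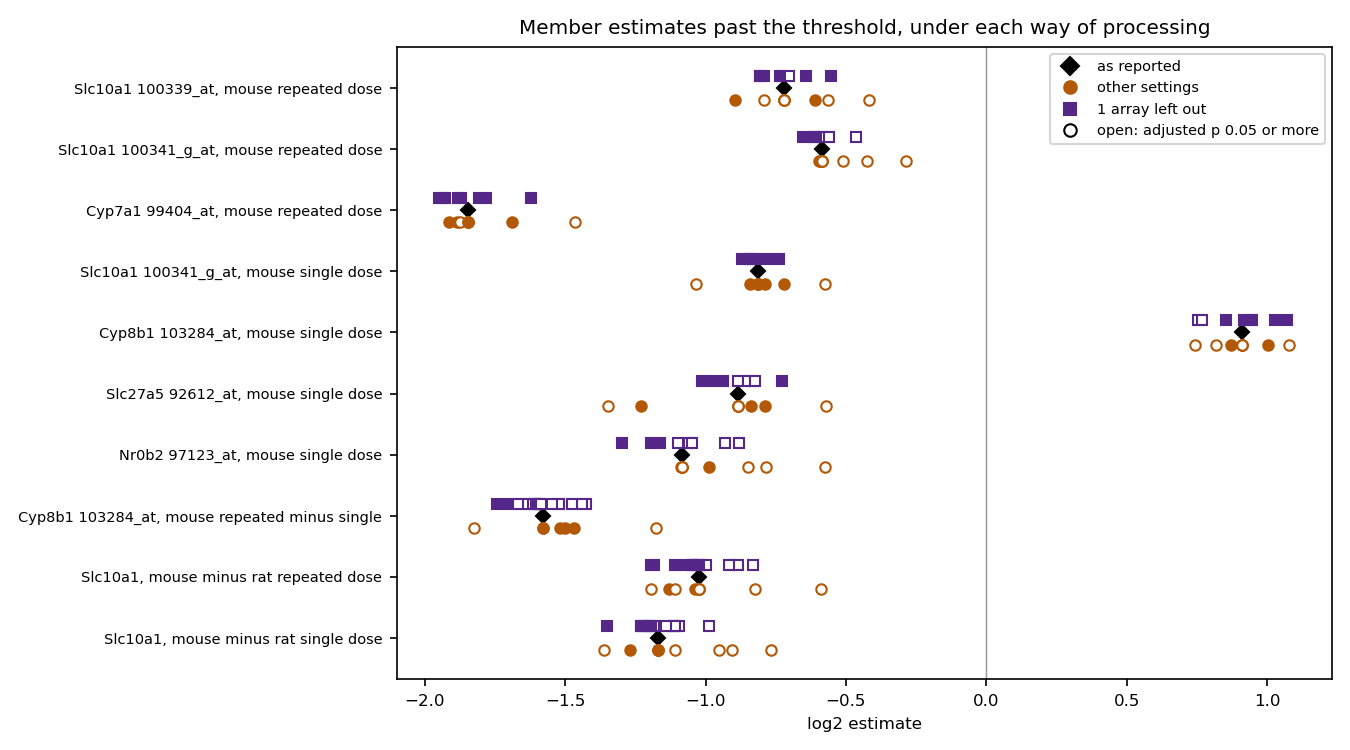
The 10 member estimates past the threshold (log2, horizontal axis) as reported (diamonds), under the other settings apart from log2(ratio + 1), which has its own scale (circles), and with 1 array left out (squares). Open symbols have an adjusted p of 0.05 or more. No symbol crosses 0, and Cyp7a1 after repeated dosing and Slc10a1 100341_g_at after a single dose have filled squares throughout.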

How the data were processed

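Liver RNA of 32 samples (8 groups of 4) was measured on Affymetrix arrays. Per the submitters' processing notes, signals were made with MAS5. Its version is not given. What the authors deposited are ratios, as the numbers themselves show: wherever no value was missing, the oil arrays in each species-schedule set had a median of 1 within 0.002. The sources used here describe neither this division nor any scaling. Control probe sets (66 in mouse, 59 in rat) were left out, and 12422 and 8740 were tested. Gene names came from the platform annotation and were used only where a probe set had 1 symbol (8251 mouse and 4736 rat genes). At most 0.224% of values were equal between arrays of a group, and no array was taken for a duplicate.

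The fit used log2 ratios, limma 3.58.1 and R 4.3.3 (lmFit and eBayes), with 1 coefficient for each group and the 16 arrays of each species together. The species difference used all 32 arrays, and a gene was represented by its probe set of least spread within groups. No filter, floor or pseudocount was applied, and the procedure was tested on simulated data. P-values were adjusted by Benjamini-Hochberg across every probe set tested (or every shared gene), with a threshold of 0.05. The members, lists and alternatives were chosen with earlier results of these data known. All members and all their probe sets were named. Of the other pathway genes up to 4 per comparison past the threshold were named. Each array's value is given at least for probe sets that passed, or whose TCE and oil arrays did not overlap, in any comparison, and ranges for most others. The alternatives were centring, quantile normalization, log2(ratio + 1), array weights, a replicate block, a Gapdh covariate, leaving out arrays or noisy probe sets, fits on fewer groups and averaged probe sets. Members were always kept when noisy probe sets were left out. Promoters came from RefSeq (GRCm38.p6), which held 6 of the 10 members. Python 3.11.15 and matplotlib 3.10.9 drew the figures.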

Additional observations from a re-analysis of the deposited data

Results flagged for a closer look

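On 4 of the 96 groups of 4 arrays checked (4.17%), 1 array stood apart from the other 3, by Dixon's test at the 95% level, and chance alone gives this in about 1 in 20 groups. Abcb4 (94733_at) was 1.351 on mouse single TCE array 2, against 1.57 to 1.602 on the other TCE arrays. Abcc2 (95283_at) was 1.026 on the same array, against 1.361 to 1.412 on the others. That array was the 1 of its group with a Gapdh value below 1. Nr1h4 (97969_at) was 1.278 on mouse repeated oil array 1, against 0.962 to 1.003 on the other oil arrays, and that array was the 1 oil array with a Gapdh value above 1. Cyp7b1 (92898_at) was 0.797 on mouse single oil array 3, against 0.992 to 1.023 on the other oil arrays.

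The effect on Cyp8b1 in mouse differed between the schedules by -1.58 on the log2 scale (repeated minus single, limma adjusted p = 0.042). The effect on Slc10a1 differed between the species by -1.02 after repeated dosing and by -1.17 after a single dose (mouse minus rat, limma adjusted p = 0.034 and 0.0318). These used mouse probe set 100341_g_at, and both calls were lost when the probe sets of a gene were averaged.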

How the results depend on the processing

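Of the 88 member estimates 10 passed the threshold, and none of these 10 changed sign in any alternative or with any array left out. All 10 kept their call with log2(ratio + 1) and with array weights, 7 with the Gapdh value as a covariate and 6 with centring on array medians. In a fit on only the groups of the comparison 3 of 9 kept it. The 8 mouse and the 2 species estimates kept it without the noisiest 40%, a setting that never left out a member. None of the 10 passed with quantile normalization, with a replicate block or without the arrays of Gapdh value above 1 (which leaves 1 TCE array in each mouse schedule, assumed to vary like the other groups), and 0 of 2 passed when probe sets of a gene were averaged. After the group mean of each probe set was subtracted, the deviations of same-numbered TCE and oil arrays correlated between -0.174 and 0.0778. The numbers were therefore not taken as pairs. The replicate block left 0 members past the threshold in every comparison (Cyp7a1 after repeated dosing: -1.85, adjusted p = 0.0661). It took the calls over all probe sets to 264 after repeated dosing and 190 after a single dose in mouse, against 1331 and 1031 without it. By the same deviations 5 of 16 TCE arrays correlated best with the oil array of their own number, out of 4 oil arrays each.

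Counts of member probe sets past the threshold were 3 in mouse after repeated dosing, 4 after a single dose, 1 for the schedule difference, 0 in rat and 1 in each species comparison. After repeated dosing the count was 1 with centring or with only the groups of the comparison, and 0 with quantile normalization or the block. It was 7 (all lower) with the Gapdh covariate or without the noisiest 40%. Of all probe sets in those 2 fits 12.1% and 23.2% passed, against 10.7% as fitted. After a single dose it was 2 with only the groups of the comparison and 0 with quantile normalization, the block or without the arrays of high Gapdh value. The schedule count was 2 with array weights or without the noisiest 40%, and 0 with those 3 settings. Over all mouse probe sets the schedule calls were 1.76% with array weights and 9.03% without the noisiest 40%, against 0.877% as fitted. In rat the member count was 1 (Nr0b2 D86745cds_s_at) after a single dose without the noisiest 40%, where 8.40% of all probe sets passed, against 1.72% as fitted. Both species counts were 0 with centring, with those 3 settings and with averaged probe sets, and 0 also with the Gapdh covariate (single dose) and with only the groups of the comparison (repeated dosing). With 1 array left out the counts ran between 1 and 4 after repeated dosing, 1 and 4 after a single dose, 0 and 2 for the schedule and 0 and 1 in each species comparison. Over all probe sets, centring changed the higher calls after repeated dosing to 475 of 981, against 278 of 1331, and after a single dose to 721 of 1076, against 517 of 1031. Quantile normalization left 7 and 59 calls. It gives every array the same distribution, although the oil arrays are ratios to their own median and the TCE arrays are not.

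Among estimates that did not pass, 21 changed sign under at least 1 alternative, 40 times in all; the cause was not tested. With centring and with quantile normalization in turn, Cyp7b1 161345_f_at in mouse after repeated dosing was 0.030 and 0.049, rat Abcc2 after a single dose -0.032 and -0.066, rat Nr0b2 D86580_at after repeated dosing -0.0024 and -0.011, and the species difference of Baat 0.12 and 0.044, Nr1h4 0.18 and 0.11 and Nr0b2 0.11 and 0.22 after a single dose, and of Nr0b2 0.077 and 0.059 after repeated dosing. The repeated species difference of Cyp7b1 was 0.029 with quantile normalization. With array weights rat Abcc2 (single) was -0.064 and rat Nr0b2 D86580_at (repeated) -0.16. With the Gapdh covariate Baat in mouse was -0.21 (repeated) and -0.054 (single), Cyp7b1 161345_f_at -0.42 (single) and 0.060 (schedule), Abcb4 -0.14 (repeated), rat Nr0b2 D86580_at -0.30 (repeated) and the Nr0b2 species difference 0.058 (single). Without the arrays of Gapdh value above 1, Baat in mouse was -0.61 (repeated) and -0.11 (single), Cyp7b1 161345_f_at -0.49 (single), Cyp7a1 -0.040 (single), Slc10a1 100340_at 0.32 (repeated) and 0.84 (schedule), Abcb4 -0.38 (repeated), Nr0b2 0.29 (repeated) and Nr1h4 0.087 (schedule). In rat, Abcc2 was -0.14 (single), Nr0b2 D86580_at -0.50 (repeated) and Cyp7a1 J05509Complete_seq_i_at -0.30 (schedule), and the species differences were 0.77 (repeated) and 0.087 (single) for Nr0b2, -0.22 for Abcb4 and -0.12 for Abcc2 (both repeated).

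With 1 array left out, 20 estimates that did not pass changed sign at least once. In mouse Cyp7b1 161345_f_at ran between -0.26 and 0.035 (repeated) and -0.10 and 0.22 (single), Baat between -0.091 and 0.27 and Abcb4 between -0.069 and 0.25 (both repeated). In rat Cyp7a1 J05460_s_at ran between -0.57 and 0.37 (repeated), -0.90 and 0.015 (single) and -0.081 and 0.87 (schedule), J05509Complete_seq_i_at between -0.023 and 0.82 (schedule), Cyp7b1 between -0.49 and 0.29 (repeated) and -0.71 and 0.075 (schedule), Abcc2 between -0.14 and 0.35 (single), Nr1h4 between -0.42 and 0.036 (single), Slc10a1 between -0.11 and 0.26 (schedule), Nr0b2 D86580_at between -0.24 and 0.27 and D86745cds_s_at between -0.34 and 0.038 (both repeated). Species differences ran between -0.36 and 0.032 (repeated) and -0.33 and 0.093 (single) for Nr0b2, -0.0093 and 0.23 for Abcc2 (repeated), -0.24 and 0.085 for Baat and -0.24 and 0.21 for Nr1h4 (both single).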
